A study of Rattus norvegicus with 145 samples.

Results

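Liver RNA of male rats given the 2 lowest doses of acetamide for 28 days was compared with that of male vehicle controls. The members were the 15 columns of raw counts that the labels assign to males, day 29 and a dose of 0, 300 or 500 mg/kg/day (mkd), out of the 145 rats of the series. Each of the 3 groups held 5 rats. All 15 were Crl:WI (Wistar) rats 8 to 10 weeks old and were gavaged daily, the control group with the water vehicle alone and the other groups with acetamide in water. On day 29, the day after the last dose, the left liver lobe was taken and its mRNA sequenced. The study describes an overnight fast before collection in its dose range finding experiment and refers to that description for these rats. The rest of the series holds males and females treated for 7 or 28 days, at doses up to 1500 mkd.

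The exposure label of the 5 control males names experiment 1, whereas that of the treated males names experiment 2. Title, strain, age and the run of rat numbers place the controls with experiment 2, and they were used so here. If the exposure label were right, dose and experiment could not be told apart. Each column is a separate rat, and the p-values below set differences between groups against the spread between rats. In the main fit this spread was estimated over all 6 dose groups of males on day 29, not over the 15 rats alone.

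Acetamide is a small amide that occurs in foods and causes liver tumors in rats after long exposure to high doses. Hepatocytes make up most of the RNA of a liver sample. They run the urea cycle, lipid synthesis and the oxidation of fuels in mitochondria, where the respiratory chain (complexes I to IV) passes electrons to oxygen and the ATP synthase uses the resulting proton gradient. Hepatocytes also carry the cytochrome P450s, esterases and glutathione transferases that process foreign compounds. In adult liver few hepatocytes divide, and transcripts of the G2 and M phases of the cell cycle are scarce.

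The count tables put 21336163 to 31907482 reads of each rat on genes, and 11279 genes passed the filter on low counts. The hepatocyte markers were high in every rat, with a mean log2 CPM of 12.55 to 13.05, where CPM is the count of a gene scaled to the size of the library. A pair of libraries stood apart, rat 3 at 300 mkd and rat 2 at 500 mkd. Their TMM normalization factors were 0.855 and 0.828 against 0.936 to 1.07 in the other 13 rats, and 20.2% and 24.7% of their reads were set aside for low alignment quality against 15.9 to 18.5% elsewhere. The summary rows of the counting program, which hold reads given to no gene, came to 44.1% ± 1.54 at 500 mkd and to 41.2% ± 1.26 in controls (SD, n = 5; exact two-sided permutation test, p = 0.0238, where the smallest possible p is 0.00794). Control rat 5 stood apart in another way, described with the genes concerned. Bulk RNA does not tell fewer cells of a type from less RNA per cell.

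Gene by gene, few or 0 genes were called against vehicle at either dose. The median absolute log2 fold change was 0.14 at 300 mkd and 0.18 at 500 mkd. At an unadjusted p under 0.05, 154 and 367 of the 11279 genes changed at least 1.5-fold. A gene was called when it passed both a 1.5-fold change and an adjusted p of 0.05 in edgeR's quasi-likelihood test, fitted on all 6 dose groups of males on day 29. By this rule 0 genes (0%) were called at 300 mkd, at 500 mkd, with both doses pooled, or between the doses. The Wald test of DESeq2 called 2 genes at 300 mkd (0.0178% of the genes given an adjusted p), 22 at 500 mkd (0.237%), 3 with the doses pooled (0.0348%) and 0 between the doses (0%). In the same edgeR fit 88 genes (0.78%) were called at 750 mkd, 311 (2.76%) at 1000 mkd and 554 (4.91%) at 1500 mkd, against the same control rats.

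Without correction for the number of genes, 638 genes (5.66%) were at p under 0.05 at 300 mkd, 413 (3.66%) higher and 225 (1.99%) lower. At 500 mkd there were 1542 (13.7%), 709 higher (6.29%) and 833 lower (7.39%), and with the doses pooled 1227 (10.9%), 641 higher (5.68%) and 586 lower (5.2%). Pooled, the larger direction turned with the size factors of DESeq2 in edgeR, at 584 higher and 621 lower. Without both libraries that stood apart 377 were higher and 480 lower pooled, and 444 higher and 827 lower at 500 mkd. Between the doses there were 739 (6.55%), of which 407 (3.61%) were higher and 332 (2.94%) lower at 500 mkd than at 300 mkd by edgeR, and 377 higher and 472 lower by DESeq2, so that the larger direction depends on the scaling. DESeq2 gave 706, 1609, 1279 and 849 genes at p under 0.05 in these comparisons. The median log2 fold change over all genes was -0.01 at 300 mkd, 0.04 at 500 mkd and 0.01 pooled. The 3 comparisons with vehicle share the control rats, so that their results are given side by side and not as support for each other.

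Genes whose 5 treated rats all lay outside the range of the 5 controls were also counted. At 300 mkd 165 genes (1.46%) lay above and 40 (0.355%) below all controls. At 500 mkd 236 (2.09%) lay above and 389 (3.45%) below. All 10 treated rats lay above the controls for 41 genes (0.364%) and below them for 18 (0.16%). The genes described next come from these sets, in order of their p-value, or from the genes that an alternative fit called.

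Carboxylesterase Ces2a, an enzyme that hydrolyzes esters and amides of drugs and lipids, had the smallest p with the doses pooled. Its level was 21.9, 20.0, 17.2, 15.4 and 13.4 CPM in the control rats, 25.6, 26.4, 25.4, 22.1 and 30.0 CPM at 300 mkd and 22.1, 29.9, 25.9, 34.5 and 31.4 CPM at 500 mkd. All 10 treated rats lay above all 5 controls. The log2 fold change was 0.56 ± 0.14 (SE) at 300 mkd, 0.71 ± 0.14 at 500 mkd and 0.63 ± 0.12 pooled, with edgeR adjusted p of 0.68, 0.117 and 0.192. DESeq2 called it at 500 mkd and pooled. It belongs to a family of closely related esterases, between which the counting of reads could be split.

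Ebpl, a relative of the sterol isomerase EBP, followed next among the genes above all controls. Controls held 35.8, 34.3, 38.8, 37.4 and 32.9 CPM of Ebpl, the rats at 300 mkd 43.8, 41.5, 48.3, 42.4 and 54.2 and the rats at 500 mkd 49.1, 60.0, 43.7, 45.9 and 49.2. The highest control, 38.8 CPM, was below the lowest treated rat, 41.5 CPM. The pooled log2 fold change was 0.41 ± 0.09 (edgeR adjusted p = 0.192).

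Microsomal glutathione transferase Mgst1, an abundant enzyme of the endoplasmic reticulum that detoxifies electrophiles and lipid peroxides, was also higher in all 10 treated rats. It read 1856, 2246, 2216, 2322 and 1835 CPM in controls, 2849.8, 2781, 3463, 2742 and 3056 CPM at 300 mkd and 2595, 2681, 2857, 2514 and 2786 CPM at 500 mkd. The log2 fold change was 0.51 ± 0.11 at 300 mkd and 0.36 ± 0.11 at 500 mkd, and the doses differed by -0.15 ± 0.11 (edgeR adjusted p = 0.803).

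Mif, a cytokine with tautomerase activity that hepatocytes also make, had the smallest p at 300 mkd. Its level was 49.8, 46.4, 53.2, 66.8 and 50.8 CPM in controls, 75.1, 76.5, 88.7, 87.6 and 93.0 CPM at 300 mkd and 61.6, 81.3, 58.3, 67.9 and 95.4 CPM at 500 mkd. The 300 mkd rats all lay above the controls, whereas 3 of the 5 rats at 500 mkd did. The log2 fold change was 0.66 ± 0.13 at 300 mkd (edgeR adjusted p = 0.153) and 0.45 ± 0.13 at 500 mkd (0.19). DESeq2 called Mif at 300 mkd, and edgeR did so when control rat 4 was left out. The kinase inhibitor Pebp1, the nucleoside diphosphate kinase Nme1 and the glycolytic enzyme Pgk1 were likewise above all controls in the 5 rats at 300 mkd, with log2 fold changes of 0.52, 0.45 and 0.44.

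Tbx20, a T-box transcription factor best known from the heart and low in liver, was the other gene that DESeq2 called at 300 mkd. It read 1.04, 0.675, 0.462, 0.168 and 0.854 CPM in controls, 0.224, 0.165, 0.0848, 0.219 and 0.102 CPM at 300 mkd and 0.662, 0.420, 0.737, 0.676 and 0.394 CPM at 500 mkd. Control rat 4 lay within the range of the 300 mkd group, and the 500 mkd rats lay within that of the controls. The log2 fold change was -1.97 ± 0.39 at 300 mkd (edgeR adjusted p = 0.153) and -0.14 ± 0.35 at 500 mkd.

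At 500 mkd most of the single genes called by the other test were lower. Of the 22 genes called there by DESeq2, 21 were lower than in controls (0.226% of the genes given an adjusted p). Several encode regulators of transcription or cell surface receptors: Foxk1, Foxn3, Nr2c2, Zfp609 and Gtf3c4 in the first group, and Egfr, Erbb3, Lrp6 and Ror1 in the second. These names were chosen after their values were seen. Restricted to the 15 rats at 0, 300 and 500 mkd, the edgeR fit called Foxn3 and Lrp6 alone (2 genes, 0.0183%).

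Foxk1, a forkhead factor that controls glycolysis and autophagy genes, had the smallest p at 500 mkd. Its level was 7.17, 6.11, 6.96, 6.22 and 6.20 CPM in controls, 5.33, 6.42, 4.45, 4.88 and 4.37 CPM at 300 mkd and 4.74, 3.08, 4.10, 4.10 and 3.76 CPM at 500 mkd. All 5 rats at 500 mkd lay below the controls, and rat 2 at 300 mkd lay among them. Against vehicle the log2 fold change was -0.72 ± 0.14 at 500 mkd (edgeR adjusted p = 0.117) and -0.36 ± 0.13 at 300 mkd (0.861). edgeR called it at 500 mkd when rat 1 of that group, or rat 2 at 300 mkd, was left out.

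Abhd2, a serine hydrolase that cleaves monoacylglycerols, was lower at 500 mkd than at 0. It read 299, 307, 378, 339 and 308 CPM in controls, 341, 413, 171, 127 and 146 CPM at 300 mkd and 152, 156, 71.6, 123 and 116 CPM at 500 mkd. The 300 mkd group split, with rats 1 and 2 among or above the controls and rats 3 to 5 below them, while all rats at 500 mkd were below. On the log2 scale the change was -1.4 ± 0.32 at 500 mkd (edgeR adjusted p = 0.172) and -0.45 ± 0.32 at 300 mkd (0.913).

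Foxn3 is a forkhead repressor of transcription. Controls had 25.8, 30.9, 31.8, 26.1 and 28.7 CPM, rats at 300 mkd 25.9, 19.9, 13.2, 15.1 and 12.2 CPM and rats at 500 mkd 15.0, 12.2, 10.4, 13.5 and 11.5 CPM. The 500 mkd values were all under those of the controls and rat 1 at 300 mkd overlapped them. Its log2 fold change was -0.73 ± 0.29 at 300 mkd and -1.19 ± 0.29 at 500 mkd (edgeR adjusted p = 0.172 in the latter). The Wnt co-receptor Lrp6 stood at a log2 fold change of -0.94 ± 0.25 at 500 mkd.

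Both membrane sensors of unfolded proteins named here were lower at 500 mkd. Ern1 (IRE1) splices Xbp1 mRNA when unfolded proteins accumulate in the endoplasmic reticulum. It was at 15.7, 23.0, 17.0, 20.9 and 20.3 CPM in controls, 21.2, 16.0, 9.41, 15.4 and 10.2 CPM at 300 mkd and 13.3, 8.54, 8.98, 12.7 and 9.99 CPM at 500 mkd, with all 5 of the latter below the controls. The fitted log2 fold change was -0.85 ± 0.20 (edgeR adjusted p = 0.172). Atf6, the other sensor, was at -0.96 ± 0.27 (edgeR adjusted p = 0.19) and was singled out after its value was seen. Of the 32 tested heat shock and endoplasmic reticulum chaperone genes, 1 was higher and 1 lower at 500 mkd at p under 0.05, with a median log2 fold change of 0.00. Of all genes 6.29% were higher and 7.39% lower there. Leaving out 1 rat at a time, the number of chaperone genes higher lay between 0 and 3 and the number lower between 1 and 5.

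The growth factor receptor Egfr read 163, 172, 190.1, 214 and 165 CPM in controls, 150.1, 201, 179.9, 97.9 and 125 CPM at 300 mkd and 114, 132, 88.0, 95.8 and 88.3 CPM at 500 mkd. Every rat at 500 mkd was below the lowest control, and 2 of the rats at 300 mkd were within the control range. Its log2 fold change came to -0.81 ± 0.21 at 500 mkd (edgeR adjusted p = 0.19) and -0.26 ± 0.21 at 300 mkd. Its partner Erbb3 was at -0.73 ± 0.18 at 500 mkd. The orphan nuclear receptor Nr2c2 was at 8.07, 10.4, 9.63, 7.60 and 7.76 CPM in controls, 8.57, 8.73, 6.61, 5.80 and 5.73 CPM at 300 mkd and 5.73, 4.48, 4.52, 5.95 and 3.58 CPM at 500 mkd, again with no overlap at 500 mkd and a log2 fold change of -0.84 ± 0.18.

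Among the 18 genes below the controls in all 10 treated rats were Gltscr1l, a subunit of a SWI/SNF chromatin remodeling complex, and Akap1, which anchors protein kinase A on the outer mitochondrial membrane. Gltscr1l read 10.2, 11.8, 11.5, 11.3 and 11.2 CPM in controls, 9.91, 9.63, 7.80, 9.91 and 6.89 CPM at 300 mkd and 8.84, 6.63, 6.22, 9.41 and 6.99 CPM at 500 mkd, with a pooled log2 fold change of -0.45 ± 0.10 (edgeR adjusted p = 0.192). Akap1 varied little among controls, at 77.4, 76.1, 77.2, 77.9 and 76.8 CPM, against 72.6, 71.2, 57.5, 71.6 and 59.5 CPM at 300 mkd and 58.3, 58.0, 48.1, 59.8 and 50.0 CPM at 500 mkd. Its log2 fold change was -0.21 ± 0.12 at 300 mkd and -0.49 ± 0.12 at 500 mkd. In both genes the lowest level was reached at 500 mkd. Without both libraries that stood apart the pooled log2 fold change was 0.62 for Ces2a, 0.35 for Ebpl, 0.39 for Mgst1, -0.42 for Gltscr1l and -0.35 for Akap1, and that at 500 mkd was -0.67 for Foxk1, -1.52 for Abhd2, -1.21 for Foxn3, -0.81 for Ern1 and -0.93 for Egfr.

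**Figure D1:**
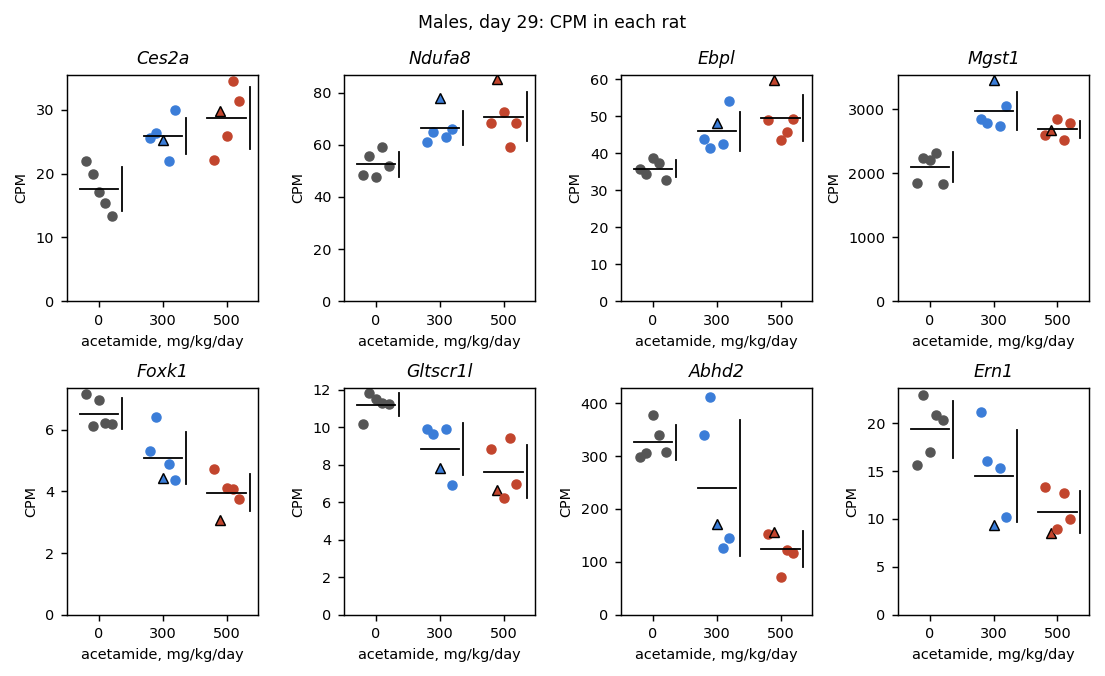
Level in CPM (vertical axis from 0) of Ces2a, Ndufa8, Ebpl, Mgst1, Foxk1, Gltscr1l, Abhd2 and Ern1 in each rat at 0, 300 and 500 mkd; points are rats, triangles mark rat 3 at 300 mkd and rat 2 at 500 mkd, horizontal lines are means and vertical bars the SD. Ces2a, Ndufa8, Ebpl and Mgst1 lie above the controls in all 10 treated rats, Foxk1, Abhd2 and Ern1 lie below them in all 5 rats at 500 mkd, and Abhd2 at 300 mkd is split between 341 and 413 CPM and 127 to 171 CPM.

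Genes of the mitochondrial respiratory chain were higher than in controls at both doses at an unadjusted p, and 0 of them passed the adjusted threshold. This list of 70 tested nuclear genes was picked by symbol after these data had been seen, and its counts are a description. Of its members 34 were higher and 0 lower at 300 mkd at p under 0.05, 41 higher and 0 lower at 500 mkd, and 47 higher and 0 lower with the doses pooled, beside 3.66%, 6.29% and 5.68% of all genes that were higher. The median log2 fold change was 0.27 at 300 mkd, 0.31 at 500 mkd and 0.28 pooled, and 70 of 70 members were above 0 in the pooled comparison. The difference between the doses had a median of 0.04. Several subunits are short genes with processed copies elsewhere in the genome, which can draw reads.

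The higher levels spread over all 5 complexes. With the doses pooled, 17 of 33 tested subunits of complex I (NADH dehydrogenase), 3 of 4 of complex II (succinate dehydrogenase), 7 of 9 of complex III (cytochrome bc1), 7 of 10 of complex IV (cytochrome c oxidase) and 13 of 14 of the ATP synthase were higher at p under 0.05. Of all genes 5.68% were higher in that comparison. The complex medians lay between 0.25 and 0.32 on the log2 scale. Ndufa8 of complex I, Ndufs4 of complex I, Cox7c of complex IV and Atp5g1 of the ATP synthase were the members with all 10 treated rats above all controls, a set of 4 picked after its values were seen. Of all genes 0.364% lay above all controls in this way.

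Ndufa8 read 48.5, 55.7, 47.6, 59.1 and 51.8 CPM in controls, 61.0, 64.8, 77.8, 62.8 and 65.9 CPM at 300 mkd and 68.2, 85.1, 72.6, 59.2 and 68.3 CPM at 500 mkd. The highest control was at 59.1 CPM and the lowest treated rat at 59.2 CPM, so that the groups only just did not overlap. The pooled log2 fold change was 0.38 ± 0.10 (edgeR adjusted p = 0.275). Uqcrb, a small subunit of complex III, was at 29.0, 33.1, 33.6, 36.0 and 35.9 CPM in controls, 34.6, 37.1, 47.8, 36.8 and 41.4 CPM at 300 mkd and 42.0, 49.9, 47.2, 39.1 and 48.3 CPM at 500 mkd, with no overlap at 500 mkd and a log2 fold change there of 0.43 ± 0.11.

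The levels moved with the libraries that stood apart. The mean log2 CPM of the 70 subunits was 5.85, 5.96, 5.96, 6.10 and 6.05 in the control rats, 6.11, 6.16, 6.41, 6.20 and 6.36 at 300 mkd and 6.10, 6.53, 6.25, 6.12 and 6.34 at 500 mkd. Rat 3 at 300 mkd and rat 2 at 500 mkd, the rats with the lowest TMM factors, had the highest score of their groups, and rat 1 at 500 mkd was level with control rat 4. Without both libraries 21 of 70 members were higher at 300 mkd, 15 at 500 mkd and 29 pooled at p under 0.05, beside 2.75%, 3.91% and 3.32% of all genes, and the medians were 0.22, 0.21 and 0.22. Leaving out 1 rat at a time, the pooled count was 21 without control rat 1, 30 without rat 2 at 500 mkd and 31 without control rat 3. At 300 mkd the count was 9 without control rat 1, 10 without rat 3 at 300 mkd, 18 without rat 5 at 300 mkd and 21 without control rat 2 or 3. At 500 mkd it was 10 without rat 2 at 500 mkd, 12 without control rat 1, 19 without rat 5 at 500 mkd, 24 without control rat 3 or rat 3 at 500 mkd and 27 without rat 5 at 300 mkd. The part of library composition in these values was not tested.

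**Figure D2:**
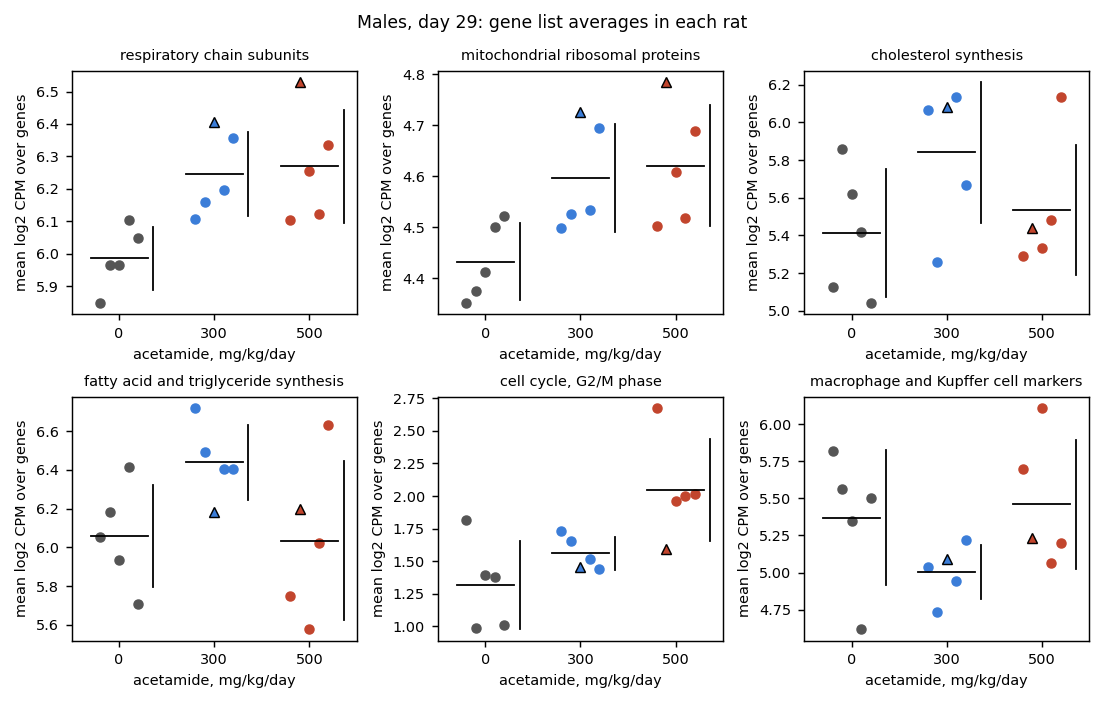
Mean log2 CPM of the members of 6 gene lists (respiratory chain, mitochondrial ribosomal proteins, cholesterol synthesis, fatty acid and triglyceride synthesis, G2/M phase, and macrophage markers) in each rat at 0, 300 and 500 mkd; points are rats, triangles mark rat 3 at 300 mkd and rat 2 at 500 mkd, horizontal lines are means and vertical bars the SD. The respiratory chain scores are 5.85 to 6.10 in controls and 6.10 to 6.53 in treated rats, and the G2/M scores reach 2.68 at 500 mkd against at most 1.82 in controls.

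Mitochondrial ribosomal proteins, which translate the transcripts of mitochondrial DNA, were described in the same way and were also listed after the data were seen. Of 66 tested members 12 were higher at 300 mkd, 23 at 500 mkd and 23 pooled at p under 0.05, and 0 were lower in each, where 3.66%, 6.29% and 5.68% of all genes were higher. The medians were 0.16, 0.21 and 0.19. Mrps16 was at 25.6, 28.8, 31.0, 33.3 and 32.1 CPM in controls, 36.5, 36.1, 44.1, 39.0 and 38.4 CPM at 300 mkd and 34.9, 48.5, 37.0, 34.2 and 43.5 CPM at 500 mkd, with all 10 treated rats above the controls. Without both libraries that stood apart the counts were 6, 11 and 10. At 300 mkd the count was 3 without control rat 1, 5 without rat 3 at 300 mkd, 6 without rat 5 at 300 mkd and 7 without control rat 2. At 500 mkd it was 8 without rat 2 at 500 mkd, 9 without control rat 1, 10 without control rat 3, 11 without rat 3 or 5 at 500 mkd, 14 without rat 4 at 300 mkd and 15 without rat 2 or 5 at 300 mkd. The pooled count lay between 10 and 15 when any one of control rats 1, 2 and 3, rats 3 and 5 at 300 mkd or rats 2, 3 and 5 at 500 mkd was left out.

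The proteasome degrades ubiquitin-tagged proteins, and its subunits were also listed after the data were seen. Of 38 tested, 5 were higher at 300 mkd (3.66% of all genes were), 17 at 500 mkd (6.29%) and 12 pooled (5.68%), and 0 lower, with medians of 0.14, 0.22 and 0.17. Without both libraries that stood apart the counts were 2, 6 and 5. At 300 mkd the count was 1 without rat 3 at 300 mkd, 2 without control rat 2 and 3 without control rat 1, 3 or 4 or rat 4 or 5 at 300 mkd. At 500 mkd it was 3 without rat 2 at 500 mkd, 5 without rat 5 and 6 without rat 3 of that group, 7 without control rat 3 or 4, and 9 to 11 without control rat 1 or 2 or any one rat at 300 mkd. The pooled count lay between 5 and 7 without any one of control rats 1 to 4, rats 3 and 5 at 300 mkd or rats 2, 3 and 5 at 500 mkd. Of 76 cytosolic ribosomal proteins, listed in the same way, 3 were higher and 1 lower at 300 mkd, 4 higher and 1 lower at 500 mkd, 5 higher and 1 lower pooled, and 38 higher and 0 lower at 750 mkd. The shares of all genes were 3.66% higher and 1.99% lower at 300 mkd, 6.29% and 7.39% at 500 mkd, 5.68% and 5.2% pooled, and 11.4% and 11.5% at 750 mkd. The pooled number higher moved from 5 to 0 or 1 without any one of control rats 1 to 4, rats 3 to 5 at 300 mkd or rats 2, 3 and 5 at 500 mkd, and to 8 to 14 without control rat 5, rat 1 at 300 mkd or rat 1 or 4 at 500 mkd. At 300 mkd it lay between 1 without rat 5 at 300 mkd and 10 without rat 1 at 300 mkd, and at 500 mkd between 1 without rat 2 at 500 mkd and 12 without rat 1 at 500 mkd.

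Nuclear respiratory factor 1 (Nrf1) activates transcription of many of these subunits. Its own transcript was lower in all 10 treated rats, at 5.25, 5.25, 5.77, 5.95 and 5.75 CPM in controls, 4.28, 4.70, 4.45, 4.34 and 3.99 CPM at 300 mkd and 4.44, 3.78, 3.64, 4.22 and 4.48 CPM at 500 mkd. The highest treated rat, 4.70 CPM, was below the lowest control, 5.25 CPM. The pooled log2 fold change was -0.40 ± 0.13 (edgeR adjusted p = 0.302). The outer membrane fusion protein Mfn2, singled out after its value was seen, was at -1.14 ± 0.32 at 500 mkd (edgeR adjusted p = 0.19).

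Promoters were searched on both strands for the NRF1 motif, a GC-rich near-palindrome, in the 250 bases before the gene start (RefSeq, GRCr8). The motif was present in 8 of the 47 respiratory chain genes with a promoter in the table (17%), in 5 of 51 mitochondrial ribosomal genes (9.8%) and in 4 of 34 proteasome genes (11.8%). It was present in 771 of 8576 tested genes (8.99%) and in 1145 of all 27457 promoters (4.17%). A match describes letters and does not show binding. Those of the complex I subunit Ndufa11 and of the mitochondrial ribosomal protein Mrpl44 are shown as examples from both lists, with the matching bases in capitals.
Ndufa11, chr9:1637364-1637613, + strand: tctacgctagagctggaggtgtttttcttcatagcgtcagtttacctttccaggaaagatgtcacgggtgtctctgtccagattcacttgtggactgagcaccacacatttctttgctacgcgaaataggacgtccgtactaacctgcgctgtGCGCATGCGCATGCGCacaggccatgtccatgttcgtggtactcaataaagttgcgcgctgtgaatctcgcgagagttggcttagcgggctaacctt
Mrpl44, chr9:88554800-88555049, + strand: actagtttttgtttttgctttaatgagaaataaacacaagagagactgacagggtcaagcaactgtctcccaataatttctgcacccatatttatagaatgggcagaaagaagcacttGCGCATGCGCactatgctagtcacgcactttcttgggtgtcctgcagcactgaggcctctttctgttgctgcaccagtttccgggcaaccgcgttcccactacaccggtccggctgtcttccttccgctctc

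In Ndufa11 the match began 97 bases before the gene start and overlapping matches ran to 82 bases before it, and in Mrpl44 it began at 132 bases. The Ndufa11 level was 60.2, 62.5, 59.8, 76.9 and 66.9 CPM in controls, 74.2, 83.6, 80.1, 73.6 and 87.7 CPM at 300 mkd and 74.6, 97.0, 75.7, 75.1 and 78.5 CPM at 500 mkd. Control rat 4 lay within the treated range. With both doses pooled the log2 fold change was 0.29 ± 0.12 for Ndufa11 and 0.27 ± 0.09 for Mrpl44. Mrpl44 read 19.2, 19.9, 20.3, 22.0 and 19.9 CPM in controls, 24.9, 21.9, 24.5, 22.2 and 26.0 CPM at 300 mkd and 21.5, 28.9, 25.2, 22.2 and 26.5 CPM at 500 mkd.

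Control rat 5 differed from the other controls in genes of the amino acid response, in which the factor ATF4 induces amino acid transporters, serine synthesis and the pseudokinase Trib3. Trib3 read 4.49, 4.99, 9.21, 8.21 and 95.2 CPM in controls, 4.92, 3.77, 4.45, 2.88 and 6.59 CPM at 300 mkd and 5.93, 3.36, 5.48, 2.87 and 4.05 CPM at 500 mkd. Control rat 5 was far above the other 14, of which the highest was at 9.21 CPM. Over both doses the log2 fold change was -2.46 ± 0.53 (unadjusted p = 7.73e-05) with all rats and -0.61 (unadjusted p = 0.129) without control rat 5. DESeq2 called Trib3 at 500 mkd and pooled.

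The arginine and lysine transporter Slc7a1 showed the same rat. Its level was 2.23, 0.938, 0.990, 0.908 and 7.43 CPM in controls, 0.596, 0.662, 0.424, 0.693 and 1.02 CPM at 300 mkd and 1.26, 0.327, 0.968, 0.929 and 0.609 CPM at 500 mkd. Control rats 1 and 5 were the highest of the 15. Pooled, the log2 fold change was -1.73 ± 0.39, and -0.76 without control rat 5 (unadjusted p = 0.0223). The hormone Fgf21 was at 16.6, 28.3, 17.3, 14.5 and 109 CPM in controls, 8.38, 18.3, 10.5, 29.3 and 54.8 CPM at 300 mkd and 11.7, 15.1, 12.6, 7.39 and 14.2 CPM at 500 mkd, and its pooled log2 fold change was -1.11 ± 0.40 with and -0.16 without that rat. For the serine synthesis enzyme Phgdh the value was -1.16 ± 0.49 with and 0.01 without control rat 5.

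The element that ATF4 binds with C/EBP partners, TGATGNAA on either strand, was found in the promoters of 3 of the 19 listed genes with a promoter in the table (15.8%), of 157 of 8576 tested genes (1.83%) and of 899 of all 27457 (3.27%). The 3 genes were Trib3, Slc7a1 and Chac1. The promoters of 2 genes that were high in control rat 5 follow, with the element in capitals.
Trib3, chr3:161275534-161275783, - strand: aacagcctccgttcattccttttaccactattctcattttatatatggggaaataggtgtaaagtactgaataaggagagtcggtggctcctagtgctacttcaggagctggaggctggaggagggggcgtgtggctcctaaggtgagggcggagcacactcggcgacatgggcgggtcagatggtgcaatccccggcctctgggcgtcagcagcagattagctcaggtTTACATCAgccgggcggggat
Slc7a1, chr12:11664238-11664487, + strand: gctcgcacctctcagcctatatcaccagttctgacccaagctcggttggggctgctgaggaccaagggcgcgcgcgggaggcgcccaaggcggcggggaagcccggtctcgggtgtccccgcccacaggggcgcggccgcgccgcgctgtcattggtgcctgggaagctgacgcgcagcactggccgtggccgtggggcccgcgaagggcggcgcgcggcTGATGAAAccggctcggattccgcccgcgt

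Over the whole list of 21 serine synthesis and ATF4 response genes, 0 were higher and 2 lower at 300 mkd, 4 lower at 500 mkd and 4 lower pooled at p under 0.05. The background of all genes lower was 1.99%, 7.39% and 5.2%. The medians were -0.34, -0.24 and -0.22, and -0.05, -0.15 and -0.06 without control rat 5, when 1, 0 and 1 of them were lower. Control rat 5 had the highest mean log2 CPM of the list, 4.17, against 3.05 to 3.78 in the other rats.

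Interferon response genes, which act against viruses, were lower in part and also moved with control rat 5. Of 43 tested, 1 was higher and 5 lower at 300 mkd, 1 higher and 11 lower at 500 mkd, and 1 higher and 10 lower pooled, beside 1.99%, 7.39% and 5.2% of all genes that were lower. The medians were -0.27, -0.23 and -0.32. Without control rat 5 the members lower numbered 0, 5 and 2. In the fit of the 15 rats alone 11 were lower at 300 mkd and 17 pooled, beside 2.84% and 7.15% of all genes. At 300 mkd the count was 8 without control rat 1 or 4, 3 without rat 1 at 300 mkd, 2 without control rat 2 and 1 without rat 5 at 300 mkd. At 500 mkd it was 7 without control rat 2, 7 without rat 3 at 500 mkd and 6 without rat 4 at 500 mkd. The antiviral synthetase Oasl was at 5.36, 9.34, 6.76, 7.77 and 23.2 CPM in controls, 5.33, 3.61, 4.79, 4.48 and 4.91 CPM at 300 mkd and 8.61, 3.55, 4.79, 5.49 and 3.37 CPM at 500 mkd. Its pooled log2 fold change was -1.10 ± 0.33 with and -0.59 without control rat 5.

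Ifit1 was the member on the other side. Controls held 0.0696, 0.0750, 0.132, 0 and 0.223 CPM, rats at 300 mkd 18.3, 7.41, 6.70, 9.08 and 0.0341 CPM and rats at 500 mkd 0.0994, 0.233, 7.23, 5.32 and 0.0716 CPM. It was thus near 0 in all controls, above 5 CPM in 4 rats at 300 mkd and 2 at 500 mkd, and near 0 in the other 4 treated rats. DESeq2 called it pooled, and in edgeR its unadjusted p was 0.003 (adjusted p = 0.302). A fitted fold change against controls this low depends on the prior count and is not given.

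**Figure D3:**
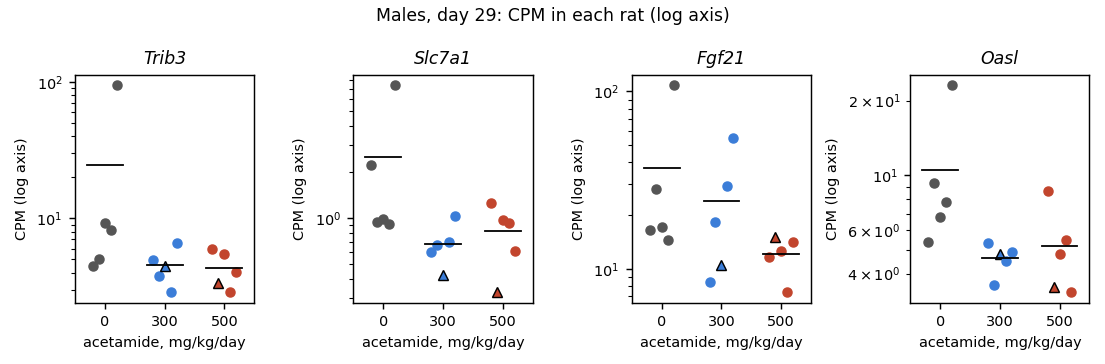
Level in CPM (log axis) of Trib3, Slc7a1, Fgf21 and Oasl in each rat at 0, 300 and 500 mkd; points are rats, triangles mark rat 3 at 300 mkd and rat 2 at 500 mkd, and horizontal lines are means. Control rat 5 is the highest of all 15 rats in each panel, at 95.2, 7.43, 109 and 23.2 CPM.

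Lipid synthesis genes at p under 0.05 were found at 300 mkd, all of them higher than in controls, and not at 500 mkd. Both arms are run by SREBP factors, the sterol arm in response to low cholesterol and the fatty acid arm in response to insulin and feeding. Of 26 cholesterol synthesis genes 10 were higher at 300 mkd, 0 at 500 mkd and 4 pooled, and 0 were lower, with medians of 0.39, 0.17 and 0.26. Of all genes 3.66%, 6.29% and 5.68% were higher. The count at 300 mkd was 3 without control rat 5, 3 without rat 4 at 300 mkd, 4 without control rat 1, 4 without rat 3 at 300 mkd, 5 without control rat 4 and 6 without rat 1 at 300 mkd. The pooled count was 1 without control rat 1, 4 or 5 or rat 5 at 500 mkd, 2 without control rat 3 or rat 3 or 4 at 300 mkd, and 9 without control rat 2. Between the doses 0 were higher and 1 lower at 500 mkd at p under 0.05, beside 3.61% and 2.94% of all genes, with a median difference of -0.32. The number lower lay between 0 and 10 when 1 rat was left out. Without rat 5 at 500 mkd the median difference was -0.59.

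Farnesyl diphosphate synthase Fdps had the smallest pooled p of the sterol genes. It read 64.2, 134, 90.8, 86.1 and 73.2 CPM in controls, 163, 75.9, 206, 249.6 and 192 CPM at 300 mkd and 72.2, 134, 109, 95.6 and 215 CPM at 500 mkd. Rat 2 at 300 mkd and 4 of the 5 rats at 500 mkd lay within the control range. Against vehicle the log2 fold change was 0.98 ± 0.31 at 300 mkd (edgeR adjusted p = 0.861) and 0.48 ± 0.31 at 500 mkd (0.486). Isopentenyl diphosphate isomerase Idi1, named after its value was seen, was at 1.01 ± 0.47 at 300 mkd and at 0.63 (unadjusted p = 0.202) without both libraries that stood apart.

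Of 25 fatty acid and triglyceride synthesis genes 7 were higher at 300 mkd, 0 at 500 mkd and 2 pooled, with 0 lower and medians of 0.38, 0.03 and 0.19, against the same shares of all genes as for the sterol list. The count at 300 mkd was 4 without control rat 3 or rat 1 at 300 mkd. Pooled it was 0 without control rat 3 or 5, rat 1 at 300 mkd or rat 5 at 500 mkd, and 1 without rat 3 or 4 at 300 mkd. Between the doses 1 was higher and 6 lower at 500 mkd, beside 3.61% and 2.94% of all genes, with a median difference of -0.37. The number lower was 3 without rat 1 at 300 mkd. Fatty acid synthase Fasn, named after its values were seen, read 49.3, 94.7, 38.9, 84.0 and 45.4 CPM in controls, 148, 89.4, 83.2, 117 and 135 CPM at 300 mkd and 47.3, 45.7, 37.1, 53.1 and 153 CPM at 500 mkd. Its log2 fold change was 0.87 ± 0.34 at 300 mkd and the difference between the doses -0.77 ± 0.34 (edgeR adjusted p = 0.75), and Srebf1, which encodes the factor SREBP1, differed by -1.02 ± 0.39.

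NRF2 targets, which supply glutathione and NADPH and conjugate electrophiles, were counted next. Of 25 tested 8 were higher and 0 lower at 300 mkd, 3 higher and 1 lower at 500 mkd, and 5 higher and 1 lower pooled, with medians of 0.28, 0.14 and 0.25. Of all genes 3.66% were higher and 1.99% lower at 300 mkd, 6.29% and 7.39% at 500 mkd, and 5.68% and 5.2% pooled. The count at 300 mkd was 4 without control rat 1, 2 or 5 or rat 3 at 300 mkd, and 5 without rat 1 or 5 at 300 mkd. At 500 mkd it was 1 without control rat 2 and 5 without rat 1 at 500 mkd, and the pooled count was 3 without control rat 1. The pentose phosphate enzyme Taldo1 was at 0.34 ± 0.09 pooled (edgeR adjusted p = 0.302), Tkt of the same pathway at 0.42 ± 0.14 and the export pump Abcc2 at -0.47 ± 0.17. Nqo1, a classic target of the pathway, was at 0.10 ± 0.28, with control rat 1 the highest of all rats at 7.17 CPM.

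Of 35 P450 and conjugation genes 2 were higher at 300 mkd, 5 at 500 mkd and 2 pooled, with 0 lower and medians of 0.17, 0.19 and 0.19, where 3.66%, 6.29% and 5.68% of all genes were higher. The count at 300 mkd was 0 without rat 3 at 300 mkd and 1 without control rat 4 or 5 or rat 1 at 300 mkd. At 500 mkd it was 1 without rat 3 at 500 mkd, 2 without any one of control rats 1, 2, 4 and 5 or rats 2 and 5 at 500 mkd, and 3 without rat 1, 4 or 5 at 300 mkd. The pooled count was 1 without control rat 4 or rat 3 at 300 mkd, 4 without rat 2 at 500 mkd and 6 without rat 1 at 500 mkd. Cyp2e1, which oxidizes ethanol and other small molecules, read 2624, 2116, 2088, 2169 and 2144 CPM in controls, 2864, 2261, 2931, 1703 and 2387 CPM at 300 mkd and 2305, 3075, 4189, 4456 and 3010.1 CPM at 500 mkd. The highest level of the 15 rats was in rat 4 at 500 mkd, and rat 1 at 500 mkd was within the control range. On the log2 scale the change was 0.12 ± 0.21 at 300 mkd and 0.61 ± 0.21 at 500 mkd (edgeR adjusted p = 0.211). Perp, a membrane protein induced by p53, was at 66.7, 64.8, 67.7, 79.6 and 56.1 CPM in controls, 79.7, 79.8, 83.1, 71.5 and 92.8 CPM at 300 mkd and 77.5, 89.7, 91.1, 101 and 92.0 CPM at 500 mkd. Control rat 4 overlapped with 1 rat of each dose. With both doses pooled the log2 fold change was 0.36 ± 0.09 (edgeR adjusted p = 0.237), while 1 of 21 p53 targets was higher and 0 were lower pooled, with a median of 0.06.

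Amino acid catabolism and urea cycle genes, the pathways nearest to an amide that yields ammonia, had 4 of 49 members higher and 0 lower at 300 mkd, 4 higher and 1 lower at 500 mkd, and 6 higher and 1 lower pooled. All genes had 3.66%, 6.29% and 5.68% higher and 1.99%, 7.39% and 5.2% lower in these comparisons. The medians were 0.09, 0.19 and 0.14. The number higher at 500 mkd was 2 without control rat 1 or 5 or rat 2 at 500 mkd. Pooled it was 2 without rat 5 at 500 mkd and 3 without control rat 1 or 5, any one of rats 1 to 3 at 300 mkd or rat 2 at 500 mkd. The hydroxyproline dehydrogenase Prodh2 was at 0.48 ± 0.16, the lysine-degrading Aass at -0.80 ± 0.32 and the aminotransferase Agxt2 at 0.53 ± 0.21 pooled. Of 36 PPARalpha targets and fatty acid oxidation genes 1 was higher and 1 lower at 300 mkd, 1 higher and 4 lower at 500 mkd, and 1 higher and 3 lower pooled, with medians of -0.06, -0.11 and -0.09, so that the 4 lower members at 500 mkd are set against 7.39% of all genes. Their number was 2 without control rat 2, 4 or 5 or rat 3 at 500 mkd, and the pooled number lower was 1 without control rat 5. The lauric acid hydroxylase Cyp4a8 was at -2.18 ± 0.77 and the thiolase Acaa2 at 0.37 ± 0.14 at 500 mkd.

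Transcripts of the G2 and M phases were higher at 500 mkd in most rats. How many of them were at p under 0.05 depended on which rats entered the fit. The mean log2 CPM of 45 G2/M genes was 1.82, 0.98, 1.39, 1.38 and 1.01 in controls, 1.73, 1.66, 1.45, 1.51 and 1.44 at 300 mkd and 2.68, 1.59, 1.97, 2.00 and 2.02 at 500 mkd. Control rat 1 overlapped with the treated groups, and 4 of 5 rats at 500 mkd were above all controls. The median log2 fold change was 0.23 at 300 mkd, 0.88 at 500 mkd and 0.54 pooled. In the fit on all 6 dose groups 0, 1 and 0 of the 45 genes were higher at p under 0.05, beside 3.66%, 6.29% and 5.68% of all genes.

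In the edgeR fit of the 15 rats alone, the same comparison at 500 mkd had 29 of the 45 genes higher and 0 lower at p under 0.05, beside 8.12% of all genes higher, with a median of 0.86. At 300 mkd 2 were higher and 1 lower in that fit, beside 5.12% and 2.84% of all genes. With the doses pooled 23 were higher and 2 lower, beside 7.67% and 7.15%. At 1500 mkd, which is part of the first fit only, the median of the list was 2.98. Rat 3 at 1500 mkd, the outlier in Ki67 labeling, is in that first fit, and the list was not counted without it. Without rat 1 at 500 mkd the median at 500 mkd was 0.59, and without control rat 1 it was 1.00.

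Cyclin B2 (Ccnb2), which drives entry into mitosis, was the G2/M gene at p under 0.05 at 500 mkd in the fit of all groups. It read 2.33, 0.450, 1.45, 1.31 and 0.928 CPM in controls, between 1.26 and 1.75 CPM at 300 mkd and 5.73, 2.24, 3.82, 4.35 and 3.55 CPM at 500 mkd, with a log2 fold change of 1.60 ± 0.66 (edgeR adjusted p = 0.292). The proliferation marker Mki67 was at 9.43, 3.56, 4.69, 4.88 and 3.04 CPM in controls, 7.56, 7.84, 5.22, 6.63 and 4.27 CPM at 300 mkd and 17.7, 6.11, 8.89, 10.4 and 9.24 CPM at 500 mkd. Control rat 1 lay above 3 rats of the 500 mkd group and above all rats at 300 mkd. The log2 fold change of Mki67 was 0.30 ± 0.69 at 300 mkd and 1.03 ± 0.69 at 500 mkd (edgeR adjusted p = 0.512). Of 36 S phase genes 0 were higher or lower at 300 mkd, 2 higher and 0 lower at 500 mkd, and 1 higher and 1 lower pooled, beside 6.29% of all genes higher and 7.39% lower at 500 mkd and 5.68% and 5.2% pooled, with medians of 0.28, 0.29 and 0.28, and cyclin E2 (Ccne2), which starts DNA replication, was at 0.58 ± 0.16 at 500 mkd.

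Some marker genes of other liver cells were higher at 500 mkd than at 300 mkd at an unadjusted p. Of 14 markers of macrophages and Kupffer cells, the resident phagocytes, 0 were higher or lower at p under 0.05 at 300 mkd, 500 mkd or pooled, with medians of -0.43, 0.12 and -0.17. Leaving out 1 rat at a time, the number lower at 300 mkd against vehicle lay between 0 and 5. The median there was -0.60 without control rat 4 and -0.30 without control rat 1. Between the doses 5 were higher and 0 lower at 500 mkd (3.61% of all genes were higher), with a median difference of 0.55. The 5 were Cd163, Vsig4 and the complement genes C1qa, C1qb and C1qc, of which Cd163 differed by 0.80 ± 0.37 (edgeR adjusted p = 0.753). The count was 0 without rat 1 or 4 at 300 mkd or rat 1 or 3 at 500 mkd, 1 without rat 2 or 3 at 300 mkd, 2 without control rat 1 or 3 and 3 without control rat 5, rat 5 at 300 mkd or rat 2 at 500 mkd. In the fit of the 15 rats alone it was 9, beside 4.78% of all genes.

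The list's mean log2 CPM was 5.82, 5.56, 5.35, 4.62 and 5.50 in controls, 5.04, 4.74, 5.09, 4.94 and 5.22 at 300 mkd and 5.70, 5.23, 6.11, 5.06 and 5.20 at 500 mkd. The 300 mkd group lay within the range of the controls. Of 11 stellate cell markers, the vitamin A storing cells that make collagen, 4 were higher and 0 lower at 500 mkd than at 300 mkd, with a median difference of 0.52. Of all genes 3.61% were higher and 2.94% lower. The number of stellate cell markers higher was 1 without rat 1 or 2 at 300 mkd or rat 1 or 3 at 500 mkd. At 300 mkd against vehicle 1 was lower, beside 1.99% of all genes, and at 500 mkd 0 were at p under 0.05, with medians of -0.29 and 0.25. Hepatocyte markers had medians of -0.06 and 0.01. Against vehicle, 1 of 8 endothelial markers was higher and 0 of 8 T and NK cell and 0 of 7 cholangiocyte markers were at p under 0.05 at 500 mkd. Of all genes 6.29% were higher and 7.39% lower there.

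The same lists were also measured at higher doses. The median of the respiratory chain list was 0.35 at 750 mkd, 0.27 at 1000 mkd and 0.28 at 1500 mkd, with 54, 28 and 37 of 70 members higher and 0, 2 and 3 lower, beside 11.4%, 13.1% and 15.7% of all genes higher and 11.5%, 13.1% and 11.4% lower. Cholesterol synthesis had medians of -0.08, -0.17 and -0.17 and fatty acid synthesis of -0.03, -0.45 and -0.27 at these doses. The interferon list stood at -0.14, 0.40 and 0.09. These comparisons share the control rats with those at 300 and 500 mkd.

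Males on day 8 and females on day 29, given the same doses, are other rats with controls of their own, and the same tests were run there with both doses pooled. The respiratory chain list had 0 members higher and 0 lower in males on day 8, with a median of 0.02, and 0 higher and 4 lower in females on day 29, with a median of -0.08. Of all genes 0.787% were higher and 1.04% lower in the former and 3.5% and 3.94% in the latter. In an edgeR interaction test the effect was more positive in males on day 29 than in females for 48 of 70 members at p under 0.05, beside 8.32% of all genes, and more positive than in males on day 8 for 19 of 69, beside 2.15%. The list was picked after the values of these day 29 males were seen, and the same males enter both interactions. The counts of members are therefore a description and no test of the list. The interactions were not run without both libraries that stood apart. The smallest adjusted p over all genes was 0.241 for the first and 0.819 for the second, so that 0 genes passed at 0.05, and 1546 and 449 passed at an unadjusted p under 0.05. DESeq2 gave 1 and 0 genes at an adjusted p of at most 0.05.

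Mgst1 was the gene that DESeq2 gave for the difference between the sexes. Its pooled log2 fold change was 0.43 ± 0.10 in males on day 29, -0.26 ± 0.13 in females on day 29 and 0.05 ± 0.12 in males on day 8. The difference between males and females was 0.69 ± 0.15 (edgeR adjusted p = 0.241). For Ces2a the values were 0.63, 0.13 and 0.43, and for Foxk1 -0.54, 0.01 and -0.07. For cholesterol synthesis the effect was more positive on day 29 than on day 8 in males for 11 of 26 genes (median difference 0.44), and for interferon genes it was more negative for 16 of 43 (median difference -0.39), beside 2.15% and 1.84% of all genes. Control rat 5 is among the rats of both of these.

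The genes that lay outside the control range on day 29 were looked up in those other rats. Of the 389 genes below all controls at 500 mkd, 78.9% were below 0 at 500 mkd in males on day 8 and 78.7% in females on day 29, where 49.2% and 51.1% of all genes were. Of the 41 genes above all controls in all 10 treated rats, 80.5% were above 0 in males on day 8 but 17.1% in females on day 29, against 50.5% and 48.6% of all genes. The 165 genes above all controls at 300 mkd were above 0 in 69.5% of cases in males on day 8 and in 21.2% in females on day 29, against 50.4% and 49.3% of all genes. For the 236 genes above all controls at 500 mkd the shares above 0 were 61.9% and 56.2%, where all genes had 50.8% and 48.9%. Of the 40 genes below all controls at 300 mkd, 62.5% were below 0 in males on day 8 and 17.5% in females on day 29, against 49.6% and 50.7%. For the 18 genes below the controls in all 10 treated rats these shares were 77.8% and 44.4%, against 49.5% and 51.4%. The genes are not independent of each other, and these shares carry no test. In size the values were small, with medians of -0.09 and -0.15 for the 389 genes.

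**Figure D4:**
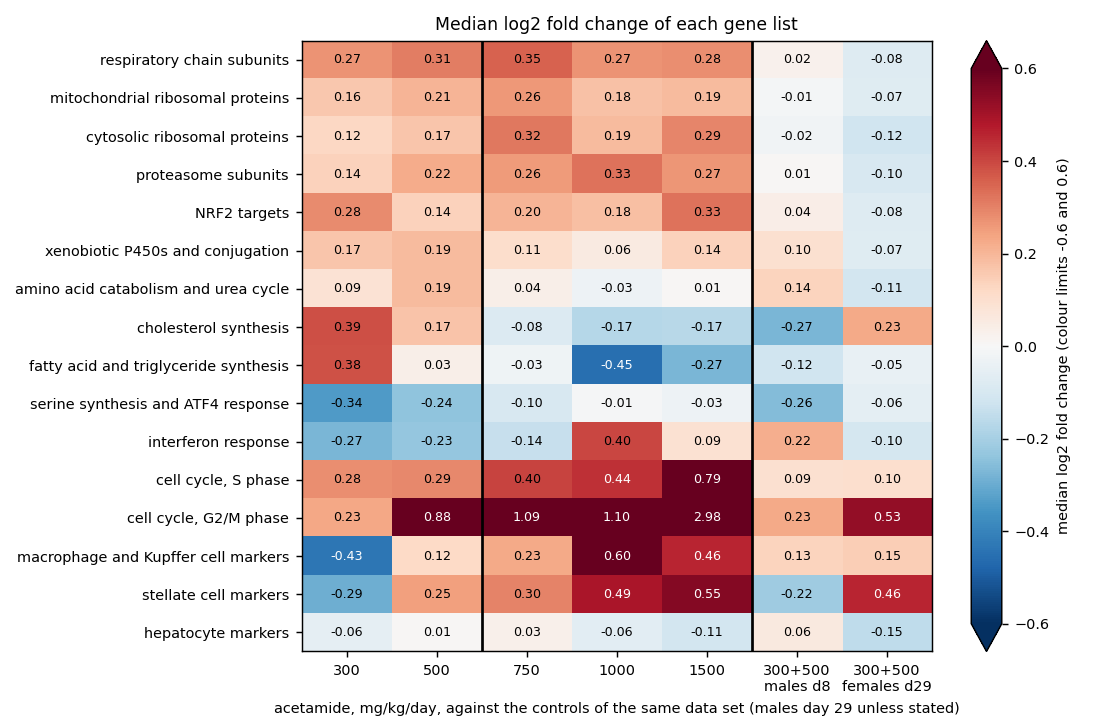
Median log2 fold change over vehicle of 16 gene lists (rows) in males on day 29 at 300, 500, 750, 1000 and 1500 mkd and with 300 and 500 mkd pooled in males on day 8 and females on day 29 (columns); color gives the median, from lower to higher than vehicle. The respiratory chain row is 0.27 and 0.31 at 300 and 500 mkd on day 29 in males, 0.02 on day 8 and -0.08 in females, and the G2/M row goes from 0.23 at 300 mkd to 2.98 at 1500 mkd.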

How the data were processed

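Liver mRNA of 145 rats was sequenced, and the deposited table holds raw read counts per gene, which the authors made by trimming with Trimmomatic, aligning to Rn6 with Bowtie2 and counting with HTSeq. Tool versions and the strand setting of the counting are not given in the sources used here, and without strand reads of overlapping genes cannot be told apart. The summary rows of HTSeq, 39.0 to 45.8% of the reads per rat, entered neither library sizes nor tests, and columns not used numbered 0. Groups were taken from the labels. Counts were scaled by TMM, filtered with filterByExpr (11279 of 17337 genes kept) and tested with edgeR 4.0.16 in R 4.3.3 by the quasi-likelihood F-test over 30 males of day 29 in 6 dose groups, with Benjamini-Hochberg adjustment. Levels are CPM with TMM scaling, and scores are means of log2 CPM with a prior count of 2. Errors of log2 fold changes are SE. Differences from males on day 8 and from females on day 29 were tested as interactions, and depth and quality by exact two-sided permutation tests. The scripts were tested on simulated data.

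The members and lists were chosen with earlier results of these data known. Of the lists 5 were added after the data were seen. The other 29 were written from known functions, except the list of genes named by the study. Genes were named by rule: those called, those with the smallest p among genes whose groups did not overlap and whose mean was at least 1 CPM (10 each way pooled and at 500 mkd, 6 at 300 mkd, 4 between doses), the 3 members of each list with the smallest pooled p and the genes named by the study. Some others were singled out after their values were seen. DESeq2 1.42.0, its size factors, other filters, a replicate block, the 15 rats alone and leaving out rats were tried as alternatives, and leaving out the 2 libraries that stood apart was chosen after seeing the data. Results for some single genes are not reported here.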

Additional observations from a re-analysis of the deposited data

Results flagged for a closer look

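In 129 groups of 5 rats looked at, 12 held 1 rat whose gap to the nearest other, divided by the group's range, was above Dixon's 95% critical value of 0.71, and chance alone gives about 1 such group in 20. The groups were those of items described in this report and share rats, so that this rate is a rough guide only. Of the 12 groups, 4 were in control rat 5. It held 95.2 CPM of Trib3 against 4.49 to 9.21 CPM in the other controls. Slc7a1 was at 7.43 CPM there against 0.908 to 2.23 CPM. For Fgf21 it stood at 109 CPM against 14.5 to 28.3 CPM, and for Oasl at 23.2 CPM against 5.36 to 9.34 CPM. Control rat 1 was high in Cyp2e1, at 2624 CPM against 2088 to 2169 CPM, and in Mki67, at 9.43 CPM against 3.04 to 4.88 CPM.

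At 500 mkd, rat 2 held 97.0 CPM of Ndufa11 against 74.6 to 78.5 CPM in the other rats of its group. Rat 5 of that group was high in lipid synthesis, with 153 CPM of Fasn against 37.1 to 53.1 CPM and a mean log2 CPM of 6.13 over the cholesterol synthesis genes against 5.29 to 5.48.

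The others concern library quality. Rat 3 at 300 mkd had a TMM factor of 0.855 against 0.947 to 0.967 in its group. Reads set aside for low alignment quality were 18.5% in control rat 2 against 16.0 to 16.7%, and 24.7% in rat 2 at 500 mkd against 17.3 to 18.4%. What lay behind these values was not tested.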

How the results depend on the processing

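Depth, at 21336163 to 31907482 reads per rat and 5 rats per group, limits what small differences can be seen. DESeq2 called 2 genes at 300 mkd, 22 at 500 mkd, 3 pooled and 1 for the difference between the sexes, and the edgeR fit of the 15 rats called 2 at 500 mkd, where edgeR called 0. Leaving out 1 rat gave 0 to 2 called genes at 300 mkd (2 without control rat 4), 0 to 2 at 500 mkd (2 without rat 1 at 500 mkd, 1 without rat 2 at 300 mkd) and 0 to 2 for the sexes (2 without control rat 3). Between the doses, genes at p under 0.05 numbered 355 without rat 3 at 500 mkd to 1193 without rat 5 at 300 mkd, with 475 and 425 without rats 1 and 2 at 300 mkd. Of the 739 genes with all rats 55.1% were higher, and 44.6% with the size factors of DESeq2. Same-numbered rats of different groups did not deviate together (correlations of -0.20 to 0.15, and 1 of 15 rats correlated best with its own number), and with the replicate block 0 genes were called in each comparison and 651, 1609, 1288 and 768 were at p under 0.05. The cause of these shifts was not tested.

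Counting each result once under each alternative, 219 values of gene counts and 2390 of list medians moved less than their limit and 13 and 58 moved more. Pooled log2 fold changes of 10 single genes turned sign, in 24 values over the alternatives. The ranges over leaving out single rats were -1.47 to 0.0086 for Phgdh (the highest without control rat 5), -0.12 to 0.63 for Fcrla, -0.17 to 0.52 for Ahsp, -0.25 to 0.088 for Slc4a1, -0.32 to 0.035 for Cdh5, -0.0074 to 0.13 for Egfl7, -0.44 to 0.0093 for Acot1, -0.20 to 0.14 for Parpbp, -0.0045 to 0.13 for Tes and -0.047 to 0.52 for Nqo1 (the highest without control rat 1). Without both libraries that stood apart Fcrla was at -0.027 and Ahsp at -0.061, and with no filter on low counts Parpbp was at -0.014.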

Other observations

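Lists with fewer members at p under 0.05 hold some further values, which are set against all genes, of which 3.66% were higher and 1.99% lower at 300 mkd, 6.29% and 7.39% at 500 mkd, and 5.68% and 5.2% pooled. Of 27 glucose metabolism genes 5 were higher and 0 lower at 300 mkd, 2 higher and 1 lower at 500 mkd, and 4 higher and 1 lower pooled, with medians of -0.04, 0.02 and -0.04. Leaving out 1 rat at a time, the number higher lay between 2 and 5 at 300 mkd and pooled, and was 2 in both without control rat 1. Of 16 circadian clock genes 2 were higher at 300 mkd and 0 at 500 mkd or pooled, with medians of 0.30, 0.16 and 0.22. The number at 300 mkd was 0 without rat 3 at 300 mkd, a library that stood apart. Immediate early genes had medians of -0.31, -0.30 and -0.34, with 1 of 21 lower pooled, and of -0.05, -0.02 and 0.12 without control rat 2. Of 22 bile acid synthesis and transport genes 1 was higher and 2 lower at 300 mkd and 0 at 500 mkd, and of 28 acute phase and plasma protein genes 3 were higher and 1 lower pooled. Male-biased liver genes had 0 of 13 and female-biased genes 1 of 13 higher pooled, with medians of 0.16 and 0.24. Zinc finger genes, listed after the data were seen, had 6 of 197 higher and 18 lower at 500 mkd, and 0 higher without control rat 3 or rat 3 at 500 mkd. B cell, erythroid and neutrophil markers had 0 members at p under 0.05 pooled, with medians of 0.20, -0.06 and -0.37. The list of 22 genes named by the study had 2 higher and 1 lower pooled, with a median of 0.28, and was chosen by the study on these samples.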
